A study of Arabidopsis thaliana with 9 samples.

Results

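The comparison set 3 ATH1 arrays of an Arabidopsis thaliana line labelled 35S::AVP1 against 3 arrays of wild type, 6 of the 9 arrays in the series, over all 20777 loci with a deposited value. The members were chosen by the genotype in the sample titles and not by any measured value. According to the labels, every plant was of the Col-0 accession and was grown on MS medium at 22 °C with days of 16 h light and 8 h dark, and RNA came from the vegetative part at growth stage 1.03, with 3 biological repeats of each genotype. Wild type plants carried no transgene in the labels. The line's label names AVP1 behind 35S, the cauliflower mosaic virus promoter used to drive a gene in most plant tissues; the sources used here do not say how many independent transformants it stands for or whether plants were pooled. The other 3 arrays were of a line with extra BRI1, the brassinosteroid receptor, whose labels give both the BRI1 promoter and 35S. Those arrays entered the estimate of the spread. For the largest changes they serve below as a second set of arrays without the AVP1 label. A line overexpressing GRF5, named in the series' design text, was not analysed here.

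The product of AVP1 is a pyrophosphatase in the vacuolar membrane that spends pyrophosphate to pump protons into the vacuole. Plants that overexpress it are known for larger leaves, greater tolerance of salt and drought, and altered auxin transport. The proton gradient it makes is used by exchangers that load sodium, calcium and nitrate into the vacuole. The gene groups described here therefore begin with the pumps and transporters of the vacuole and go on to defence, metabolism and growth.

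AVP1 (AT1G15690) itself was measured at 12.58, 12.59 and 12.71 on the wild type arrays and 12.49, 12.55 and 12.57 on those of the line, on a log2 scale. The groups did not overlap, but they lay within a narrow band, and the line was the lower one. The change, line minus wild type, was -0.09 (95% interval -0.25 to 0.07; limma adjusted p = 0.489), and the two-sided exact permutation p was 0.1, the smallest that 3 arrays against 3 can give. On each array AVP1 ranked at the 99.3 percentile of loci or higher. A higher AVP1 level, which the label would call for, was not measured, and the sources used here do not place the probes on the construct, so the plants are called the line labelled 35S::AVP1, or the line, throughout. No change below is tied to the amount of AVP1.

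The 3 arrays of the line correlated with each other at 0.995 to 0.996 across loci, the wild type arrays with each other at 0.990 to 0.996, and the line with wild type at 0.980 to 0.986. Loci are not independent replicates, so these values are descriptive. The BRI1 line correlated with wild type at 0.990 to 0.997 and with the line labelled 35S::AVP1 at 0.984 to 0.987. Markers of photosynthetic leaf had a mean level of 13.8 on every wild type array and every array of the line, and 0 of 9 were called at an adjusted p under 0.05 (1 had an unadjusted p under 0.05 by limma). The replicate SD of the median locus was 0.10 in wild type and 0.10 in the line. With array data the precision is limited by how many arrays there are.

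A total of 2300 loci, 11.1% of those measured, differed between the line and wild type by limma at a Benjamini-Hochberg adjusted p under 0.05. Of all loci 6.31% (1310) were higher in the line and 4.76% (990) were lower; at an unadjusted p under 0.05 there were 5027. Most of these changes were small: 878 of the loci called higher and 510 of those called lower changed by less than 1.5-fold, and the median size was 0.47 on the log2 scale among the higher and 0.57 among the lower. The large changes were mostly falls. At least 8-fold changes numbered 28 down and 6 up, and at least 2-fold changes 215 down and 129 up. Over all loci the median change was 0.05, and quantile normalization gave 0.01 and median centring 0.02, under which 49.2% and 47.3% of called loci were higher in place of 57.0%. With 1 of the 6 arrays left out in turn, 1268 loci were called every time, 171 in 5 or 4 of the fits and 861 in 3 or fewer. The groups did not overlap in 2297 of the 2300 called loci and in 5899 (28.4%) of all loci. A lack of overlap, given below for single genes, therefore adds little to a call.

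Called loci were spread over the genome and over all but the dimmest genes. On chromosomes 1 to 5 the shares called were 11.1%, 10.2%, 10.5%, 11.7% and 11.5%. By mean level the dimmest 20% of loci had 1.92% called, and the others 10.2%, 16.2%, 14.1% and 13.0% in rising order of level. The 10th percentile of the arrays lay at 3.71 to 3.79, and near it the lower end of the scale limits a fold. Of the loci called lower, 29 had a mean below the upper of those values in the line, as did 37 of those called higher in wild type.

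**Figure D1:**
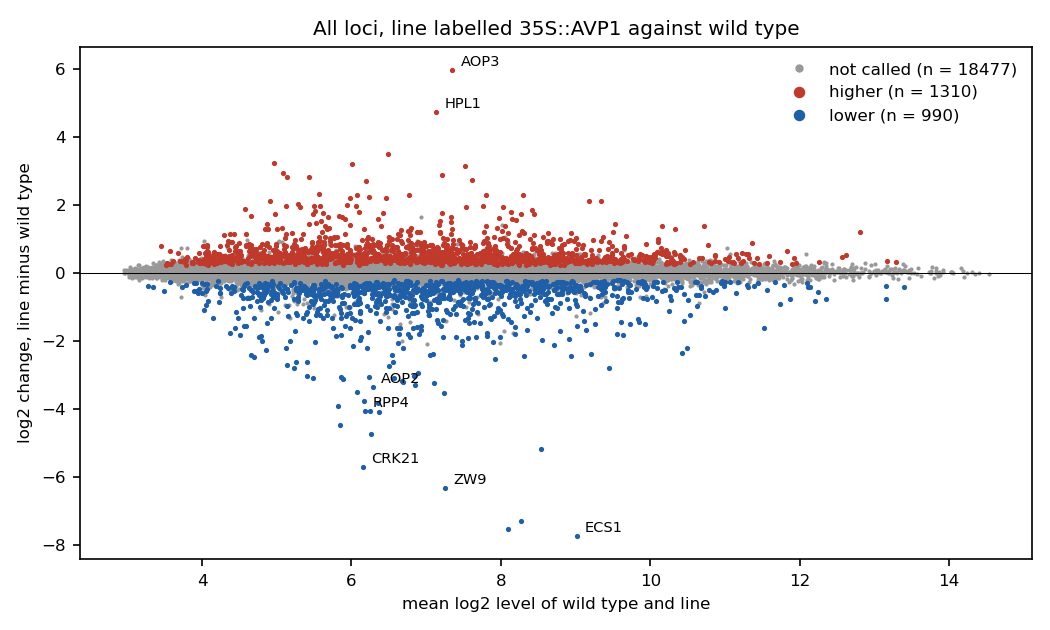
Change of each of the 20777 loci (log2, line minus wild type; vertical axis) against its mean log2 level over both groups (horizontal axis); red points were called higher (1310), blue points lower (990) and grey points were not called (18477). The largest changes lie far outside the main band, from ECS1 (-7.74) and ZW9 (-6.34) at the bottom to AOP3 (5.95) at the top, with more points below than above at such sizes.

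The transcripts with the largest falls were at moderate to high levels on every array without the AVP1 label and far lower in the line. ECS1 (AT1G31580), a cell wall protein gene known for its link to resistance against Xanthomonas, stood at 12.99, 12.97 and 12.69 on the wild type arrays and 4.84, 5.32 and 5.27 on those of the line, and at 12.96, 13.01 and 13.19 on the arrays of the BRI1 line. AT1G66100 stood at 12.06, 11.84 and 11.70 on the wild type arrays and 4.42, 4.46 and 4.1 on those of the line, and AT2G25450 at 11.93, 11.91 and 11.92 on the wild type arrays and 4.90, 4.61 and 4.31 on those of the line. In each of these genes the lowest wild type array was above the highest array of the line by several log2 units, and the 3 arrays of a group lay close together. ZW9 (AT1G58270) went from 10.42 ± 0.06 to 4.09 ± 0.11 (SD, n = 3), which is -6.34 (95% interval -6.51 to -6.16; limma adjusted p = 4.10e-11) on the log2 scale. CRK21 (AT4G23290), one of the cysteine-rich receptor-like kinases of the cell surface, went from 9.01 ± 0.25 to 3.30 ± 0.07 (SD, n = 3), which is below the 10th percentile of the arrays. The 20 largest falls had sizes of 3.22 to 7.74 on the log2 scale, and in the BRI1 line the same loci differed from wild type by -0.28 to 0.39. They included AT1G23130 (-5.2), AT1G23960 (-4.75), AT2G01090 (-4.48), AT5G45500 (-4.11), AT3G60980 (-4.07), AT3G57470 (-3.84), AT5G42250 (-3.54), AT4G19500 (-3.53), AT1G63880 (-3.31) and AT4G01130 (-3.22), which are given by locus ID because the gene table pairs them with no symbol. The other loci among the 20 were CRK22, RPP4, RPP13, SNC1 and AOP2, described with their groups.

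The transcripts with the largest rises started from low or moderate levels in wild type. AOP3 (AT4G03050) stood at 4.28, 4.37 and 4.47 on the wild type arrays and 10.48, 10.09 and 10.40 on those of the line, and HPL1 (AT4G15440) at 4.95, 4.54 and 4.84 on the wild type arrays and 9.79, 9.38 and 9.32 on those of the line. ENDO5 (AT4G21600), an endonuclease gene, stood at 3.98, 4.02 and 4.08 on the wild type arrays and 6.87, 6.93 and 6.71 on those of the line. The groups were far apart in all 3 of these genes, with every array of the line above every wild type array. LURP1 (AT2G14560), a gene known for its late induction by a downy mildew pathogen, was more variable, at 5.96, 6.90 and 5.87 on the wild type arrays and 8.30, 9.03 and 9.60 on those of the line, and at 6.11, 7.24 and 7.07 in the BRI1 line. Its change was 2.73 (95% interval 1.86 to 3.60; limma adjusted p = 0.00145). The pectin methylesterase genes ATPMEPCRB (AT4G02330) and PME2 (AT1G53830), whose products trim methyl groups from cell wall pectin, rose by 2.82 and 2.32. The lipid acyl hydrolase gene PLA2A (AT2G26560) rose by 2.29, the actin depolymerizing factor gene ADF5 (AT2G16700) by 2.28 and the thioredoxin gene TRX5 (AT1G45145) by 2.27. The 20 largest rises had sizes of 2.18 to 5.95, and in the BRI1 line those loci differed from wild type by -0.33 to 0.74. Loci without a symbol among them were AT5G15360 (3.48), AT5G35480 (3.21), AT1G62770 (3.19), AT4G17470 (3.12), AT3G48640 (2.93), AT5G55570 (2.88), AT5G26280 (2.7), AT1G14120 (2.21), AT3G21770 (2.19) and AT5G10760 (2.18). Without line replicate 2 the change of AT5G10760 was 1.51. In wild type ATPMEPCRB (3.73), AT3G48640 (3.62) and AT5G35480 (3.37) were below or within the 10th percentiles of the arrays. At smaller or more variable changes the BRI1 line did not always lie with wild type. Means in wild type, the line and the BRI1 line were 10.93, 11.79 and 11.60 for PYK10 and 9.79, 10.51 and 10.32 for XTH31. They were 5.11, 4.46 and 4.59 for DREB1B and 8.29, 5.90 and 6.41 for BT5. These genes were picked after their values were seen, and how many others behaved so was not counted.

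**Figure D2:**
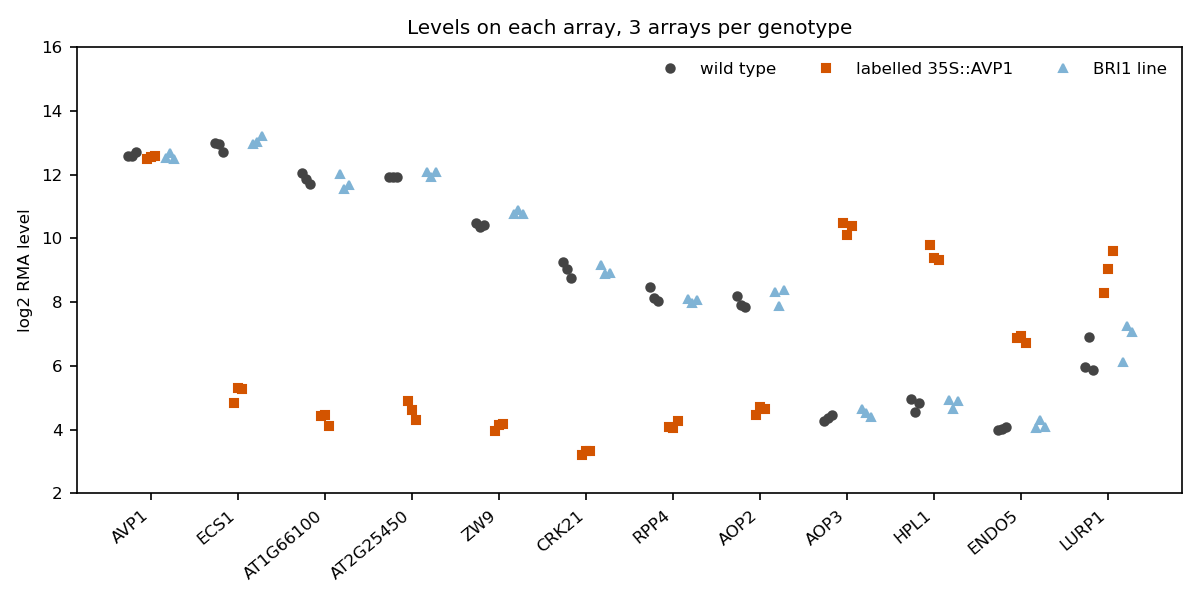
Log2 RMA level (vertical axis) of AVP1 and 11 loci with large changes, 1 point per array, for wild type (dark circles), the line labelled 35S::AVP1 (orange squares) and the BRI1 line (light triangles), 3 arrays each. AVP1 is level across the genotypes, while in the other genes the orange squares stand apart and the triangles lie with the circles.

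The pumps and transporters of the vacuole were compared first among the gene groups because of the label. Of 9 pyrophosphatase genes 2 were called higher and 0 lower, 22.2% against 11.1% of all loci (median 0.07, against 0.05 over all loci). PPA5, a soluble pyrophosphatase, was at 6.53, 6.82 and 6.63 on the wild type arrays and 7.24, 7.29 and 7.19 on those of the line, without overlap, a change of 0.58 (95% interval 0.40 to 0.77; limma adjusted p = 0.00135). VHP2;2 (AT1G16780), a proton-pumping pyrophosphatase of the type that sits in Golgi membranes, rose by 0.35, and its close relative AVP2 was at -0.01 and not called. Of 22 subunit genes of the vacuolar and plasma membrane proton ATPases, limma called 0; 4 had an unadjusted p under 0.05, 18 had a positive sign, and the changes ran from -0.26 to 0.41. A single one was called higher without line replicate 2 or 3.

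Of 19 tonoplast transporters and aquaporins 2 rose and 3 fell, 26.3% against 11.1% of all loci (median 0.04). CAX3, a calcium/proton exchanger, was at 6.08, 6.54 and 6.64 on the wild type arrays and 7.81, 8.74 and 7.29 on those of the line. The arrays of the line were all higher than wild type but more spread, and the change was 1.53 (95% interval 0.82 to 2.23; limma adjusted p = 0.0119). NHX2, a sodium and potassium/proton exchanger, rose by 0.39. The nitrate/proton exchanger gene CLC-A was at 9.74, 9.60 and 9.71 on the wild type arrays and 9.15, 9.07 and 9.08 on those of the line, a change of -0.59 (95% interval -0.74 to -0.43; limma adjusted p = 0.000434) with no overlap. The water channel genes TIP1;1 and TIP2;2 fell by 0.45 and 0.52 on the log2 scale. Among 8 plasma membrane aquaporins PIP1;5 rose (0.55) and 0 fell, with 12.5% called. When 1 array was left out, calls were lost by VHP2;2 without line replicate 2 or wild type replicate 1 (adjusted p up to 0.0619), NHX2 without line replicate 1 or 3 or wild type replicate 3 (adjusted p up to 0.0796), TIP1;1 without line replicate 1 or 2 or wild type replicate 2 or 3 (adjusted p up to 0.158) and TIP2;2 without line replicate 2 or 3 or wild type replicate 1, 2 or 3 (adjusted p up to 0.117).

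Auxin carriers and genes of salt tolerance, both linked to AVP1 in earlier work, held some called members. Of 15 auxin transport genes 2 rose and 0 fell, 13.3% against 11.1% of all loci, and 11 had a positive sign (median 0.06). LAX3, an influx carrier gene, was at 6.83, 7.08 and 6.81 on the wild type arrays and 7.46, 7.78 and 7.62 on those of the line, without overlap, and rose by 0.71 (95% interval 0.47 to 0.96; limma adjusted p = 0.00238). ABCB4, a carrier known from roots, was at 4.58, 4.56 and 4.50 on the wild type arrays and 5.34, 6.50 and 5.23 on those of the line. Its arrays of the line were scattered; the change of 1.14 was 0.74 without line replicate 2, and the call was lost without wild type replicate 2 (adjusted p = 0.0665). The efflux carrier genes PIN3 and PIN7 changed by 0.45 and 0.02 and were not called.

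Among 27 genes of salt, drought and abscisic acid responses 4 rose and 2 fell, 22.2% against 11.1% of all loci (median 0.16). SOS3, the calcium sensor of the salt overly sensitive pathway, stood at 5.08, 5.51 and 5.34 on the wild type arrays and 5.89, 6.14 and 5.80 on those of the line, a rise of 0.63 (95% interval 0.36 to 0.90; limma adjusted p = 0.00759). ABA2, an enzyme of abscisic acid synthesis, stood at 8.15, 8.05 and 7.49 on the wild type arrays and 6.99, 6.95 and 7.08 on those of the line, a change of -0.89 (95% interval -1.23 to -0.54; limma adjusted p = 0.00473). Both genes separated the groups on every array. The neighbouring cold regulators DREB1A and DREB1B went in opposite directions, by 0.82 and -0.64, and ABI1 (0.37) and ABI5 (0.36) of abscisic acid signalling rose. In fits without 1 array, calls were lost by DREB1A without line replicate 3 or wild type replicate 2 (adjusted p up to 0.063), ABI1 without line replicate 1 or 3 or wild type replicate 2 (adjusted p up to 0.094) and ABI5 without line replicate 1 (adjusted p up to 0.0527). Higher members numbered 2 without line replicate 3 and also without wild type replicate 2.

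Several genes of metal transport were higher in the line. Of 25 genes of iron and metal homeostasis 6 rose and 0 fell, 24.0% against 11.1% of all loci. Yet 13 of the 25 had a negative sign (median -0.05). With the 6 arrays alone 3 members were called lower. The iron regulators BHLH101 (-1.21) and BHLH39 (-1.01), named after their values were seen, had the largest negative changes and were not called. ZIP4, a zinc transporter gene, was at 5.54, 5.25 and 5.49 on the wild type arrays and 6.46, 6.32 and 6.02 on those of the line; the copper transporter gene COPT2 rose by 0.94 and the metal-nicotianamine transporter gene YSL2 by 0.82. Those 3 genes kept their calls whichever of the 6 arrays was left out. The nicotianamine synthases NAS1 (0.97) and NAS4 (0.84) and the ferritin gene FER2 (0.39) rose too, but calls were lost by NAS1 without line replicate 1, 2 or 3 or wild type replicate 2 or 3 (adjusted p up to 0.132), NAS4 without line replicate 1 or 3 or wild type replicate 3 (adjusted p up to 0.0648) and FER2 without line replicate 1 or 2 or wild type replicate 1 or 2 (adjusted p up to 0.0715), and without line replicate 1 the list had 3 members called. LSU2, a gene induced by sulfur shortage, stood at 6.67, 6.46 and 6.35 on the wild type arrays and 3.77, 3.95 and 3.64 on those of the line. It was the largest change among 29 nitrogen, sulfur and phosphate genes, -2.71 (95% interval -3.07 to -2.34; limma adjusted p = 3.31e-06), and its level in the line was within the 10th percentiles of the arrays. In that list of 29 genes 2 rose and 2 fell, 13.8% against 11.1% of all loci. The sulfate transporter gene SULTR1;2 also fell (-0.47), while APR3, a sulfate reduction enzyme gene, rose (0.52), as did the phosphate exporter gene PHO1 (0.81). PHO1 lost its call without line replicate 1 or wild type replicate 3 (adjusted p up to 0.0742), and without line replicate 2 its list had 4 higher members.

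Glucosinolates are sulfur-rich defence compounds of the cabbage order, made from methionine (aliphatic) or tryptophan (indolic) and split by myrosinases when tissue is damaged. Their aliphatic pathway held the largest rise and one of the largest falls in the data. Of its 23 genes 5 rose and 4 fell, 39.1% against 11.1% of all loci, and the median change was 0.05. The largest changes were in side chain genes. AOP2 and AOP3 encode related dioxygenases that convert the same precursors to alkenyl and hydroxyalkyl glucosinolates. They lie side by side with AOP1 on chromosome 4. AOP3 was the largest rise (5.95), while AOP2 stood at 8.21, 7.89 and 7.84 on the wild type arrays and 4.47, 4.70 and 4.63 on those of the line, the opposite order, a change of -3.38 (95% interval -3.70 to -3.05; limma adjusted p = 2.34e-07). The gene table lists AOP2 as a transcribed pseudogene. AOP1 stood at 7.30, 7.55 and 7.28 on the wild type arrays and 8.79, 8.67 and 8.74 on those of the line and rose by 1.36 (95% interval 1.17 to 1.55; limma adjusted p = 4.04e-06). All 3 neighbours separated the groups, 2 upward and 1 downward.

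Earlier steps of the aliphatic pathway changed as well. MAM1 and MAM3, adjacent genes of chromosome 5 for the synthases that lengthen the methionine chain, went opposite ways: MAM1 was at 11.84, 11.52 and 11.19 on the wild type arrays and 10.51, 10.34 and 10.60 on those of the line and MAM3 at 7.71, 7.45 and 7.57 on the wild type arrays and 9.21, 9.35 and 9.37 on those of the line. For both genes the groups did not overlap. FMO GS-OX2 (AT1G62540), an S-oxygenase of the side chain, rose by 2.28 (95% interval 1.71 to 2.85; limma adjusted p = 0.000289), and MYB28, the transcription factor that switches on the aliphatic genes, rose by 0.72. The other called members were AT2G25450, whose change of -7.31 was the largest of the pathway, and FMO GS-OX4. FMO GS-OX4 was named after its value was seen and fell by 0.70 on the log2 scale. BCAT4 (0.05), the transaminase gene that opens chain elongation, BAT5 (0.32), a plastid transporter gene, and IIL1 (0.26), a subunit of the isomerase, were not called. AOP, MAM and FMO genes are families of close relatives, and how far their probes bind each other's RNA was not tested.

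The indolic branch and the breakdown enzymes also held called genes. Of 14 indolic genes 14.3% were called. CYP81F1, which hydroxylates the indole ring, rose (0.80) and CYP83B1 fell (-0.45). CYP83B1 was called without wild type replicate 3 but not without any other of the 6 arrays (adjusted p up to 0.088). Of 9 breakdown genes 3 rose and 1 fell, 44.4% against 11.1% of all loci. ESM1, which favours isothiocyanates over nitriles, was at 12.20, 12.41 and 12.42 on the wild type arrays and 10.58, 10.60 and 10.96 on those of the line, a change of -1.63 (95% interval -1.88 to -1.38; limma adjusted p = 9.39e-06). ESP, the epithiospecifier gene that favours nitriles, was at 8.83, 8.59 and 8.57 on the wild type arrays and 9.45, 9.22 and 9.38 on those of the line and rose by 0.69 (95% interval 0.46 to 0.91; limma adjusted p = 0.00167). Both genes separated the groups, in opposite directions. PYK10, a beta-glucosidase gene of endoplasmic reticulum bodies, rose by 0.86, and MVP1, the gene next to ESP, by 0.46, a call lost without line replicate 1 or 3 or wild type replicate 3 (adjusted p up to 0.0718).

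**Figure D3:**
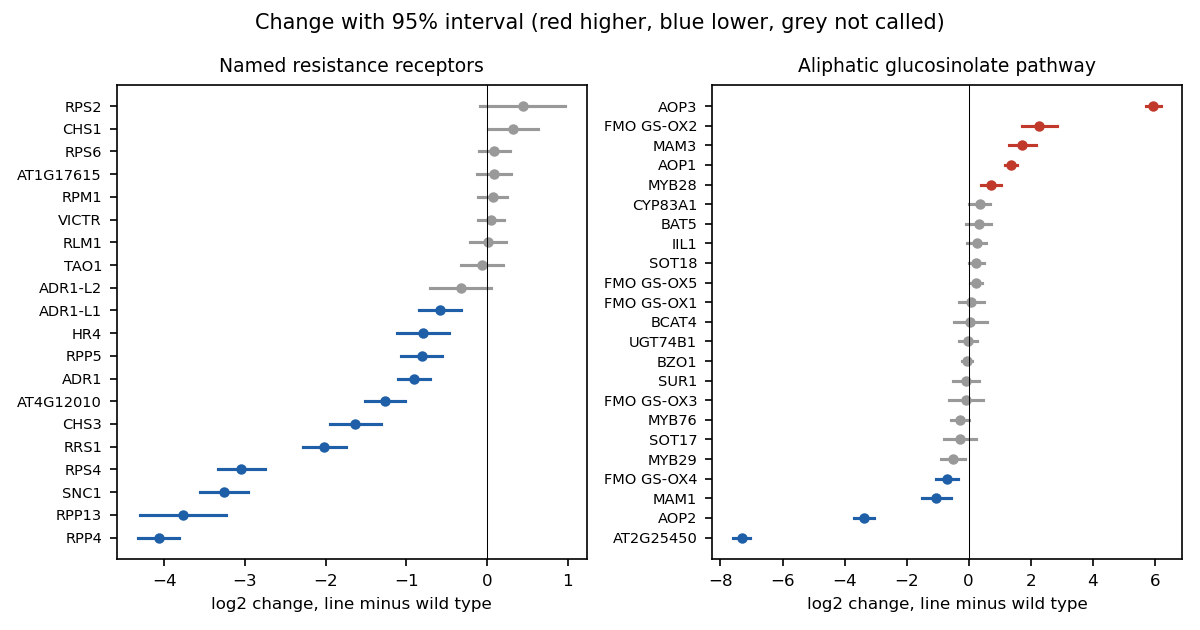
Log2 change (line minus wild type, horizontal axis) with its 95% interval for 20 of the 21 named disease resistance receptors (left) and the 23 aliphatic glucosinolate genes (right); red was called higher, blue lower and grey not called. The 11 called receptors all lie left of 0, while the called glucosinolate genes fall on both sides, from AT2G25450 to AOP3.

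Intracellular immune receptors of the nucleotide-binding leucine-rich repeat class recognise pathogen proteins and set off cell death and salicylic acid defence. Of 21 named resistance genes, most of them of this class, 11 were lower in the line and 0 were higher, 52.4% against 4.76% of all loci called lower; the list median was -0.59 against 0.05. RPP4, a receptor for downy mildew, was at 8.48, 8.12 and 8.03 on the wild type arrays and 4.09, 4.06 and 4.27 on those of the line. RPP13, another downy mildew receptor, was at 8.18, 7.79 and 8.21 on the wild type arrays and 3.92, 3.99 and 4.96 on those of the line, and SNC1, whose gain-of-function allele gives constant defence, at 8.65, 8.70 and 8.86 on the wild type arrays and 5.14, 5.71 and 5.59 on those of the line. RPP4 and RPP13 were near the bottom of the scale in the line and SNC1 was well below wild type, with no overlap on any of the 3. The count was 11 in every alternative setting and in each of the 6 fits without 1 array. The list was chosen with earlier results of these data known, which these fits do not address, so its share is descriptive.

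Receptors that work in pairs and lie next to each other fell together. RPS4 and RRS1 form a pair that detects bacterial effectors; RPS4 was at 6.60, 7.05 and 7.12 on the wild type arrays and 3.79, 3.99 and 3.87 on those of the line, and RRS1 went from 6.19 ± 0.10 to 4.17 ± 0.26 (SD, n = 3). CHS3 went from 5.26 ± 0.18 to 3.63 ± 0.28, below the 10th percentile of the arrays. Its neighbour and partner CSA1, chosen after its values were seen, went from 7.03 ± 0.11 to 3.93 ± 0.21 (change -3.10). Both members of each pair were lower on every array of the line. The helper receptor gene ADR1 (-0.91) and AT4G12010 (-1.26) were lower too, and so were RPP5 (-0.81), HR4 (-0.80) and ADR1-L1 (-0.59), which were named after their values were seen. RPM1 (0.07) and RPS2 (0.44), receptors for Pseudomonas effectors, were not called. In the stretch of chromosome 4 from RPP4 to RLM3, examined after its values were seen, 5 of 10 measured loci were lower and 0 higher, RLM3 by 1.91 on the log2 scale. Resistance genes of such stretches resemble each other, and how far their probes bind each other's RNA was not tested.

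Receptor-like kinases of the cysteine-rich group, which sit at the cell surface, also showed large falls within 1 stretch of chromosome 4. Of 36 measured members of the family 5 rose and 7 fell, 33.3% against 11.1% of all loci. In the stretch from CRK5 to CRK24, examined after its values were seen, 17 loci were measured, of which 4 were lower, 2 higher and 11 not called. CRK22 was at 8.06, 7.76 and 7.54 on the wild type arrays and 3.85, 3.80 and 3.93 on those of the line. CRK18 (-1.84), CRK19 (-1.89) and CRK21 (-5.71) were lower, and CRK5 (0.88) and CRK24 (0.27) were higher. The lower genes lie near each other, with CRK20 between them at a level near the bottom of the scale in both groups (3.50 and 3.42). Outside the stretch CRK30 (-1.05) and CRK29 (-0.74) fell and CRK41 rose (0.94). Of 44 receptor-like proteins, which lack a kinase, 5 rose and 2 fell (15.9%). RLP13 (0.80), RLP1 (0.71) and RLP46 (0.64) rose and RLP54 fell (-1.27).

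Genes of salicylic acid defence, which lies downstream of the receptors, were higher where they were called. Of 23 genes of salicylic acid synthesis and signalling 4 rose and 0 fell, beside 6.31% called higher and 4.76% lower among all loci. In this list 22 had a positive sign, and the median was 0.26. The 1 negative member, ACD6 (-0.64), was named after its value was seen and was not called. EDS5, which exports the salicylic acid precursor from the chloroplast, stood at 5.11, 4.58 and 5.12 on the wild type arrays and 5.59, 5.70 and 5.57 on those of the line, without overlap, a rise of 0.68 (95% interval 0.39 to 0.97; limma adjusted p = 0.00855). NIMIN1, which binds the coactivator NPR1, rose by 0.42, and the transcription factor gene WRKY38 by 0.36 from 3.61 in wild type, under the arrays' 10th percentile. WRKY54 rose by 1.24. When 1 array was left out, calls were lost by NIMIN1 without line replicate 2 or 3 (adjusted p up to 0.0674) and WRKY54 without line replicate 1, 2 or 3 or wild type replicate 1 or 3 (adjusted p up to 0.138).

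Of 23 pathogenesis-related and defence response genes 5 rose and 2 fell, 30.4% against 11.1% of all loci, the 2 being ECS1 and RLM3. PR2, a beta-glucanase gene used as a marker of salicylic acid responses, was at 4.09, 4.40 and 4.12 on the wild type arrays and 4.90, 6.48 and 5.11 on those of the line. One array of the line was far above the others: without line replicate 2 the change of 1.29 was 0.80, and leaving out wild type replicate 1, 2 or 3 ended the call (adjusted p up to 0.078). PR1 (0.12), PR4 (0.58) and PR5 (0.10), of the same list, were not called. PR3, a chitinase gene, rose by 0.76 (95% interval 0.59 to 0.93; limma adjusted p = 0.000128). KTI1, a Kunitz trypsin inhibitor gene, rose by 1.47 and NUDT6, a hydrolase gene, by 0.79. Those 3 kept their calls without any 1 of the 6 arrays.

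Oxylipins are made from oxidised fatty acids, by allene oxide synthase toward jasmonate or by hydroperoxide lyase toward leaf aldehydes. Of 17 genes 2 rose and 3 fell, 29.4% against 11.1% of all loci, and 12 were not called (median 0.00). HPL1, the lyase, was the second largest rise in the data. AOS, the synthase that competes for the same hydroperoxide, went from 9.89 ± 0.18 to 7.93 ± 0.19 (SD, n = 3), and OPR3, a later step of jasmonate synthesis, was at 8.55, 8.49 and 8.57 on the wild type arrays and 7.18, 7.52 and 7.59 on those of the line. In both the groups did not overlap and the line was lower, by 1.96 and 1.11 on the log2 scale. The lipoxygenase genes LOX3 and LOX4, which supply the hydroperoxide, went in opposite directions, LOX3 by -0.57 and LOX4 by 0.69. Of 20 genes of jasmonate signalling and response 2 rose and 1 fell, beside 11.1% called among all loci. CORI3, a cystine lyase gene induced by jasmonate, rose by 1.28 (95% interval 1.03 to 1.53; limma adjusted p = 6.03e-05); the sulfotransferase gene ST2A rose by 0.64 and the thionin gene THI2.2 fell by 0.96 on the log2 scale. With 1 array left out, calls were lost by ST2A without line replicate 2 or wild type replicate 3 (adjusted p up to 0.0558) and THI2.2 without line replicate 3 or wild type replicate 2 (adjusted p up to 0.0536).

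Some of the loci with large changes are known, as background, to differ among natural accessions of Arabidopsis in sequence, copy number or expression. Of 25 such loci in a list assembled for this purpose, 4 were higher and 9 lower, 52.0% against 11.1% of all loci, and 12 were not called. The list was made with earlier results of these data known and holds several of the loci with the largest changes, so its share is descriptive. It also shares members with the glucosinolate and receptor lists and is not independent of them. Among its called members were also the flowering genes FLC, which rose (0.89), and FRI, which fell (-0.60). The labels give Col-0 for every array. Whether the line carries Col-0 sequence at these loci, and whether the probes match it, was not tested, so a low signal need not mean less RNA.

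**Figure D4:**
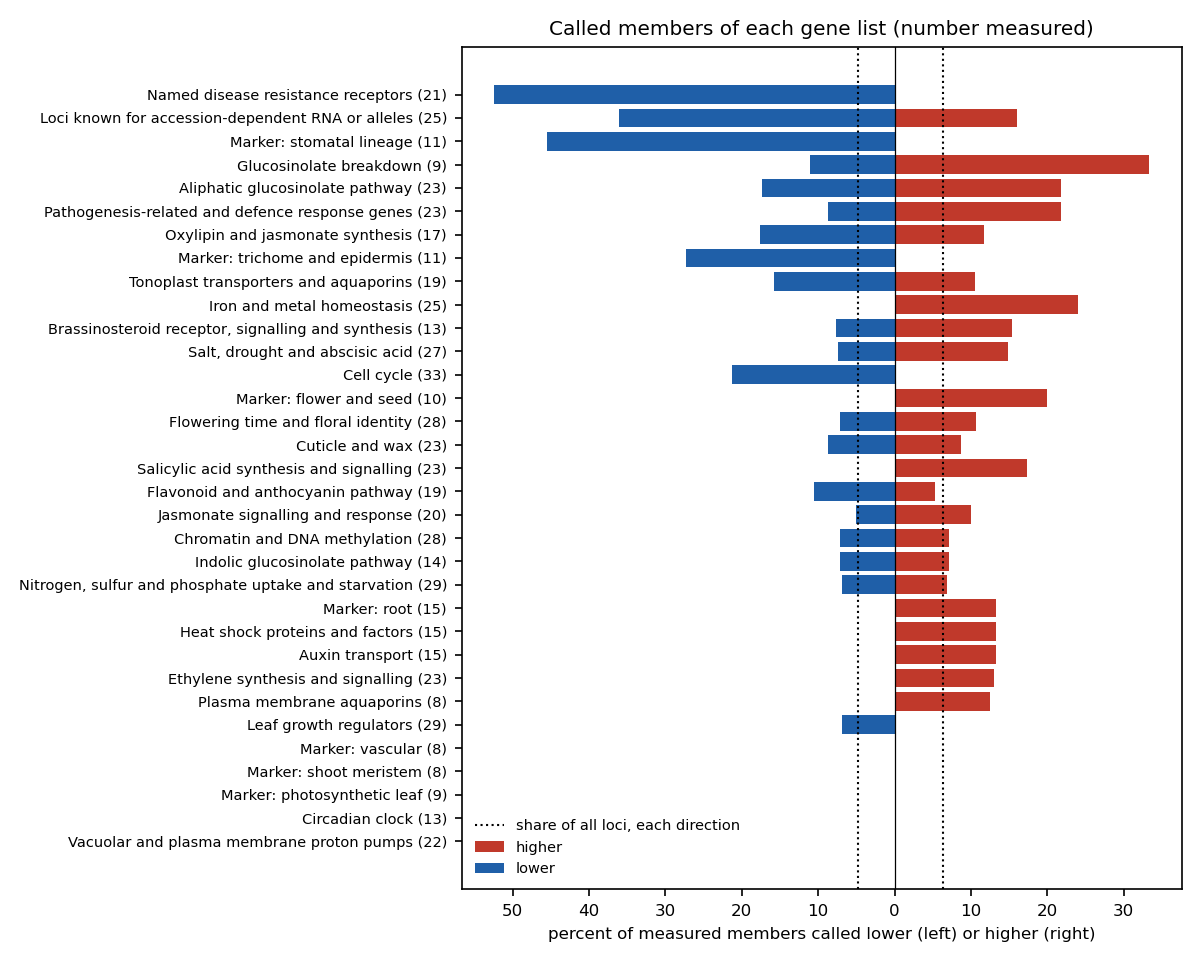
Share of the measured members of each gene list that were called higher (red, right) or lower (blue, left) in the line, in percent, with the number measured in brackets; dotted lines mark the shares over all loci, 6.31% higher and 4.76% lower. The named resistance receptors reach 52.4% on the lower side with 0 on the higher, while the proton pump, clock, leaf, meristem and vascular lists have no called member. The lists were chosen with earlier results of these data known.

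Growth genes were compared because the series concerns leaf size. Of 33 cell cycle genes 7 were lower and 0 higher, 21.2% against 11.1% of all loci. The median was -0.16, with 22 negative signs. CYCD3;3, a D-type cyclin gene that keeps leaf cells dividing, was at 7.10, 7.05 and 6.85 on the wild type arrays and 6.34, 6.46 and 6.42 on those of the line. KN, the syntaxin gene of the dividing cell plate, was at 9.29, 9.26 and 9.02 on the wild type arrays and 8.69, 8.54 and 8.62 on those of the line, and CDKB2;1, a mitotic kinase gene, at 7.20, 7.09 and 6.95 on the wild type arrays and 6.59, 6.49 and 6.63 on those of the line. The groups did not overlap on any of the 3, and the falls were 0.59, 0.57 and 0.51 on the log2 scale (limma adjusted p = 0.0031, 0.00317 and 0.00258). The replication genes PCNA2 (-0.44) and MCM7 (-0.31) and the cyclin genes CYCB1;1 (-0.38) and CYCB1;3 (-0.38) were the other 4. With 1 array left out, calls were lost by PCNA2 without line replicate 1 or wild type replicate 2 (adjusted p up to 0.0546), MCM7 without line replicate 1, 2 or 3 or wild type replicate 2 (adjusted p up to 0.103), CYCB1;1 without line replicate 1 or 3 or wild type replicate 1 or 2 (adjusted p up to 0.0811) and CYCB1;3 without line replicate 1, 2 or 3 or wild type replicate 1 or 2 (adjusted p up to 0.156). The list had 3 lower members without line replicate 1 or wild type replicate 2 and 4 without line replicate 3. In whole tissue, fewer cells of a type and less RNA per cell cannot be told apart.

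Of 29 leaf growth regulators 2 fell and 0 rose, 6.9% against 11.1% of all loci (median -0.05). TCP2, a transcription factor gene that restrains leaf margin growth, was at 9.26, 9.56 and 9.59 on the wild type arrays and 8.80, 8.40 and 8.41 on those of the line, and EXO, a gene of brassinosteroid-promoted growth, at 8.65, 8.37 and 7.56 on the wild type arrays and 6.91, 6.97 and 7.03 on those of the line. Both were lower on every array of the line, by 0.93 and 1.22 on the log2 scale. Of 13 brassinosteroid receptor, signalling and synthesis genes 2 rose and 1 fell (23.1%), all of them synthesis genes with changes between -0.34 and 0.51. Calls were lost by BR6OX1 without line replicate 2 or 3 or wild type replicate 2 or 3 (adjusted p up to 0.0798), BR6OX2 without line replicate 2 or 3 or wild type replicate 1 or 3 (adjusted p up to 0.132) and DWF4 without line replicate 1 or 3 or wild type replicate 1, 2 or 3 (adjusted p up to 0.108). Among 10 type-A response regulators, which damp cytokinin signalling, RR16 fell (-1.19) along with ARR4 (-0.27), the latter not called without any 1 of the 6 arrays (adjusted p up to 0.12). GASA1, a gibberellin-regulated peptide gene, was at 9.20, 9.01 and 9.07 on the wild type arrays and 7.60, 7.46 and 6.78 on those of the line, the 1 called of 6 GASA genes, with a change of -1.81 (95% interval -2.30 to -1.32; limma adjusted p = 0.000473).

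Cell wall genes went both ways. Of 28 expansins, which loosen the wall, 4 rose and 2 fell, 21.4% against 11.1% of all loci. EXLA1 was at 7.84, 7.84 and 7.97 on the wild type arrays and 8.67, 9.10 and 9.21 on those of the line. EXPA15 (0.72), EXPA8 (0.56) and EXLA3 (0.57) rose as well, and EXPA9 (-0.51) and EXPA1 (-0.43) fell. Leaving out 1 array, calls were lost by EXLA3 without line replicate 1 or wild type replicate 1 or 2 (adjusted p up to 0.0883), EXPA9 without line replicate 1 or 2 or wild type replicate 1 or 2 (adjusted p up to 0.122) and EXPA1 without line replicate 2 or 3 or wild type replicate 1 or 2 (adjusted p up to 0.0925). Of 32 xyloglucan endotransglucosylases, which cut and rejoin wall polymers, 4 rose and 4 fell (25.0%). XTH24 (0.80), XTH31 (0.72), XTH6 (0.61) and XTH33 (0.59) were higher, and XTH30 (-0.65), XTH9 (-0.65), XTH17 (-0.59) and XTH16 (-0.58) lower. XTH9 had overlapping groups and lost its call without line replicate 1 or 2 or wild type replicate 2 or 3 (adjusted p up to 0.147). Among 17 pectin methylesterase and inhibitor genes 3 rose and 2 fell (29.4%). PME2 was at 4.54, 4.46 and 4.21 on the wild type arrays and 6.41, 6.85 and 6.90 on those of the line, without overlap. PME1 rose (0.53), while PME5 (-0.70) and PME61 (-0.66) fell.

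Some regulators of the epidermis were lower. Of 11 trichome and epidermis genes 3 fell and 0 rose, 27.3% against 11.1% of all loci. All 3 were positive regulators of trichome formation. GL1, which starts a trichome, was at 5.29, 5.24 and 5.21 on the wild type arrays and 4.74, 4.59 and 4.50 on those of the line; GL2, which acts after it, at 7.28, 7.36 and 7.59 on the wild type arrays and 6.41, 6.20 and 6.02 on those of the line; and MYB23, a relative of GL1, at 6.57, 6.54 and 6.61 on the wild type arrays and 5.25, 4.84 and 4.72 on those of the line. The groups did not overlap on any of the 3, and MYB23 had the largest change, -1.64 (95% interval -1.92 to -1.35; limma adjusted p = 2.48e-05). The summed list gave a mean level of 6.85 to 6.90 on the wild type arrays and 6.45 to 6.62 on those of the line. EGL3 (0.20) and TTG1 (0.01), which act in a complex with GL1, and TRY (0.04), which inhibits it, were not called. MYB106, a further regulator of trichomes and of the cuticle, fell by 0.94 on the log2 scale. A member of the list was called higher without line replicate 2.

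Of 11 genes of the stomatal lineage 5 fell and 0 rose, 45.5% against 11.1% of all loci (median -0.25). ICE1, a transcription factor that acts with SPCH and its relatives, was at 8.78, 8.76 and 8.56 on the wild type arrays and 7.26, 6.44 and 7.10 on those of the line, without overlap, a change of -1.77 (95% interval -2.16 to -1.38; limma adjusted p = 0.000123). SPCH, which starts the lineage, TMM and SDD1, which space stomata, and GORK, a guard cell potassium channel gene, fell by 0.43, 0.43, 0.58 and 0.40 on the log2 scale. With 1 array left out, calls were lost by SPCH without line replicate 1 or 2 or wild type replicate 1, 2 or 3 (adjusted p up to 0.141), TMM without line replicate 2 or wild type replicate 2 (adjusted p up to 0.0724), SDD1 without line replicate 2 or 3 or wild type replicate 1 or 2 (adjusted p up to 0.122) and GORK without line replicate 1 or 2 or wild type replicate 2 or 3 (adjusted p up to 0.121). ICE1 alone of the 5 was called in all 6 such fits. The list had 1 called member without line replicate 2 or wild type replicate 2, and 3 without line replicate 1 or wild type replicate 1 or 3.

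**Figure D5:**
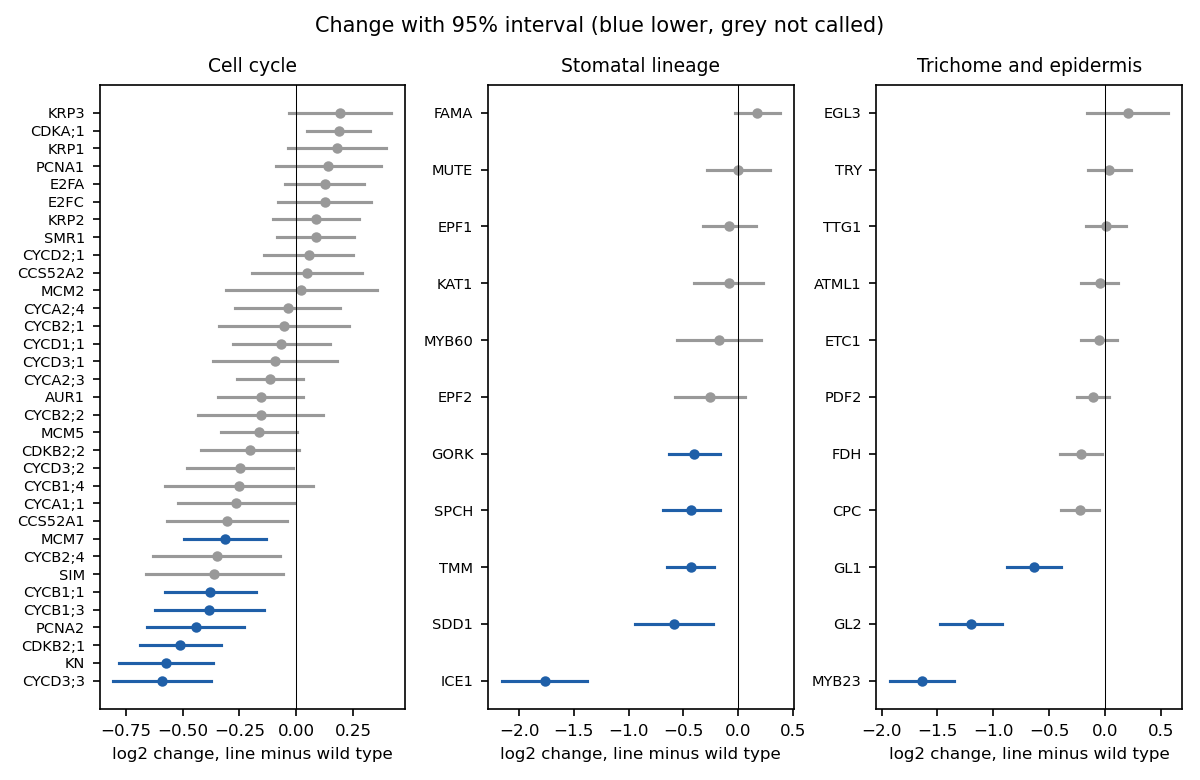
Log2 change (line minus wild type, horizontal axis) with its 95% interval for 33 cell cycle genes, 11 stomatal lineage genes and 11 trichome and epidermis genes; blue was called lower and grey not called. The called genes of all 3 lists lie left of 0, and ICE1, MYB23 and GL2 stand apart from the rest of their lists.

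Markers of other tissues were examined for a difference in what was harvested. Of 15 root markers 2 rose (13.3% against 11.1% of all loci), PYK10 (0.86) and ESB1 (0.42). The list had a mean level of 5.30 on the wild type arrays and 5.45 to 5.46 on those of the line. ESB1 lost its call without line replicate 1 or 3 or wild type replicate 3 (adjusted p up to 0.0788). The 10 flower and seed markers had mean levels of 4.05 to 4.07 in wild type and 4.29 to 4.56 in the line. Of these 10 markers 2 were called higher, SEP3 and AG, and 0 lower, beside 11.1% called among all loci. A positive sign was found in 9 of the 10, and 5 had an unadjusted p under 0.05 by limma. Without line replicate 3, 4 of them were called. The 8 shoot meristem and 8 vascular markers had 0 called each (1 of each had an unadjusted p under 0.05 by limma). What part the root and flower markers have in the changes of other groups was not tested.

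Flowering genes showed opposite changes among close relatives. SEP3, a floral organ identity gene, was at 4.49, 4.82 and 4.53 on the wild type arrays and 6.74, 6.27 and 6.24 on those of the line, and SEP4, of the same family, at 6.69, 6.41 and 6.59 on the wild type arrays and 3.96, 3.79 and 4.08 on those of the line. The groups did not overlap on either gene, which rose by 1.80 (95% interval 1.49 to 2.11; limma adjusted p = 2.33e-05) and changed by -2.62 (95% interval -2.84 to -2.41; limma adjusted p = 7.76e-08). FLC, the flowering repressor, was at 5.17, 5.19 and 5.2 on the wild type arrays and 6.16, 6.25 and 5.81 on those of the line. AG, the gene of stamens and carpels, rose by 0.57 from 3.39 in wild type, under the arrays' 10th percentile. FRI, an activator of FLC, changed by -0.60, a call lost without line replicate 2 (adjusted p = 0.0527). In all 3 of 28 flowering genes rose and 2 fell, 17.9% against 11.1% of all loci.

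Of 28 genes of chromatin and DNA methylation 2 rose and 2 fell, 14.3% against 11.1% of all loci. MET1, the methyltransferase that copies CG methylation at replication, was at 8.48, 8.36 and 8.59 on the wild type arrays and 7.69, 7.95 and 8.04 on those of the line, and its cofactor VIM1 changed by -0.48. Both fell, MET1 by 0.59 on the log2 scale with no overlap. FAS2, a subunit of the chromatin assembly factor that loads histones behind the replication fork, was at 6.04, 6.41 and 6.41 on the wild type arrays and 7.44, 7.52 and 7.45 on those of the line and rose by 1.18 (95% interval 0.93 to 1.44; limma adjusted p = 0.000104). AGO4, of the small RNA pathway, rose by 0.26, a call lost without line replicate 1 or 2 or wild type replicate 2 (adjusted p up to 0.0751).

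Metabolic enzyme families held large falls in a few genes. Of 178 cytochrome P450 genes 8 rose and 13 fell, 11.8% against 11.1% of all loci. CYP71B26 was at 9.15, 9.36 and 9.05 on the wild type arrays and 7.07, 6.63 and 6.26 on those of the line, and CYP89A5 (-2.42), which ended at 3.44 in the line, below the 10th percentile of the arrays, and CYP89A9 (-1.87) fell as well. The fatty acid hydroxylase genes CYP86A4 (-1.09) and CYP86A7 (-0.83) fell too. Of 48 UDP-glycosyltransferases 5 rose and 3 fell (16.7%), led by UGT89B1 (-1.0), and of 39 glutathione S-transferases 4 rose and 3 fell (17.9%), among them GSTU1 (-0.71), GSTU27 (0.70) and GSTU26 (0.65). Limma called 0 of 11 terpene synthases, with 2 at an unadjusted p under 0.05. Among 5 jacalin lectins 3 rose, JAL22 (0.83) in every fit without 1 array, while calls were lost by JAL23 without line replicate 1 or 2 or wild type replicate 2 or 3 (adjusted p up to 0.0748) and JAL34 without line replicate 1 or 2 or wild type replicate 2 or 3 (adjusted p up to 0.0925).

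Surface lipid and pigment genes were called in both directions. Of 23 cuticle and wax genes 2 rose and 2 fell, beside 11.1% called among all loci; GPAT8, an acyltransferase gene of cutin synthesis, fell by 0.48 on the log2 scale and kept its call in every fit without 1 array. KCS1 (0.39), BDG1 (0.31) and LACS1 (-0.57) were called, but with 1 array left out calls were lost by KCS1 without line replicate 2 or wild type replicate 3 (adjusted p up to 0.0635), BDG1 without line replicate 1 or 2 or wild type replicate 1 or 3 (adjusted p up to 0.084) and LACS1 without line replicate 1 or 2 or wild type replicate 2 or 3 (adjusted p up to 0.088). Among 19 flavonoid genes 1 rose and 2 fell (15.8%). CHI, the chalcone isomerase gene, was at 7.79, 7.70 and 7.29 on the wild type arrays and 8.65, 8.41 and 8.62 on those of the line, a rise of 0.97 (95% interval 0.68 to 1.25; limma adjusted p = 0.000818) without overlap. Without line replicate 3 the cuticle list had 4 lower members. UGT78D1 (-0.50) and FLS1 (-0.35) fell, and calls were lost by UGT78D1 without line replicate 2 or 3 or wild type replicate 1 or 2 (adjusted p up to 0.0765) and FLS1 without line replicate 2 or 3 or wild type replicate 1, 2 or 3 (adjusted p up to 0.15).

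Transcription factor families and other signalling genes were called in both directions. Of 109 MYB genes 3 rose and 5 fell (7.34%), and of 58 WRKY genes 4 rose and 3 fell (12.1%), against 11.1% of all loci. MYB47 rose by 1.14 and MYB70 changed by -0.82; WRKY42 (0.61) and WRKY23 (0.54) rose in every fit without 1 array. Among 15 heat shock genes 2 rose (13.3%). HSP70 (AT3G12580), a cytosolic chaperone gene, was at 5.84, 5.48 and 5.37 on the wild type arrays and 7.58, 7.08 and 6.76 on those of the line. It was higher on every array of the line, by 1.58 (95% interval 1.09 to 2.07; limma adjusted p = 0.00124), while HSFB1 (0.42) lost its call without line replicate 1, 2 or 3 or wild type replicate 1 (adjusted p up to 0.0933). Of 23 ethylene genes CTR1 (0.30), EBF1 (0.24) and EIN2 (0.22) rose (13.0% of the list). Yet 13 of the 23 had a negative sign (median -0.02), and the largest change, -2.02, was a fall that was not called. Calls were lost by CTR1 without line replicate 1 or 2 or wild type replicate 2 (adjusted p up to 0.0738), EBF1 without line replicate 1, 2 or 3 or wild type replicate 2 or 3 (adjusted p up to 0.126) and EIN2 without line replicate 1, 2 or 3 or wild type replicate 1, 2 or 3 (adjusted p up to 0.123), and 4 members of the list were called lower without wild type replicate 3. Limma called 0 of 13 clock genes, with 1 at an unadjusted p under 0.05, and called 1 higher without wild type replicate 1.

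Some called loci stood next to each other, and how many runs an order without grouping would give was not tested. Among the 20508 loci placed in the gene table, 22 runs of 3 neighbouring measured loci were called in 1 direction, 12 lower and 10 higher, and no run was longer. The runs held 66 loci; the 10 with the largest mean change are named, an order set after the values were seen. The largest was on chromosome 5, of AT5G45480 (-1.17), AT5G45500 (-4.11) and AT5G45510 (-0.69). On chromosome 1 AT1G62770 (3.19), AT1G62780 (0.45) and AT1G62790 (1.60) rose together and AT1G72890 (-1.33), AT1G72900 (-1.33) and AT1G72920 (-2.49) fell together. On chromosome 4 VPS54 (-0.48), a gene of vesicle tethering, fell with AT4G19500 (-3.53) and AT4G19510 (-1.03). Sadhu4-2 (-3.03) fell with its neighbours 2A6 (-0.56) and AHP5 (-0.64), and AT1G67860 (-1.28), AT1G67865 (-2.39) and AT1G67870 (-0.39) also formed a falling run. The remaining named runs rose: AT3G53980 (1.36), AT3G53990 (0.46) and AT3G54000 (1.64) on chromosome 3, MRB1 (0.48), AT4G22280 (1.96) and SOBER1 (0.42) on chromosome 4, SAMTL (0.32), AT2G35810 (0.78) and AT2G35820 (1.3) on chromosome 2 and SIP1;2 (0.60), AT5G18310 (0.89) and AT5G18340 (0.86) on chromosome 5. With 1 array left out, calls in these runs were lost by AT1G62780 without line replicate 1 or 3 or wild type replicate 2 (adjusted p up to 0.107), AT1G72900 without line replicate 1 or 3 or wild type replicate 2 (adjusted p up to 0.0987), AT1G72920 without line replicate 1, 2 or 3 (adjusted p up to 0.0595), AT3G53990 without line replicate 2 or 3 or wild type replicate 2 or 3 (adjusted p up to 0.0791), MRB1 without wild type replicate 2 (adjusted p up to 0.0586) and SAMTL without line replicate 1 or 2 or wild type replicate 1, 2 or 3 (adjusted p up to 0.148). Without wild type replicate 1 the change of AT1G72920 was -1.66 and that of AT1G72900 -0.88.

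The organelle genomes were represented by 73 chloroplast and 31 mitochondrial loci, which the gene table does not name. Of the chloroplast loci 5 were higher and 7 lower (16.4% against 11.1% of all loci), from -1.44 for ATCG01110 to 1.18 for ATCG00380. Of the mitochondrial loci 3 were higher and 1 lower (12.9%), with ATMG01360 at 0.69 and ATMG01370 at -0.85. These loci are transcribed in organelles, and their priming in the labelling reaction was not tested.

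A few called loci varied widely within a group. BT5 (AT4G37610) was at 10.01, 7.90 and 6.94 on the wild type arrays and 5.78, 6.15 and 5.77 on those of the line, and AT1G72920 at 7.62, 5.60 and 4.62 on the wild type arrays and 3.45, 3.44 and 3.47 on those of the line. In both genes the spread lay among the wild type arrays, and replicate 1 was the high one. Without that array the change of BT5 went from -2.39 to -1.52 and that of AT1G72920 from -2.49 to -1.66, and both were still called. CAF1a, a deadenylase gene of rapid stress responses, was at 9.12, 7.78 and 6.53 on the wild type arrays and 5.90, 6.36 and 5.75 on those of the line and had the same order; its change of -1.81 was -1.15 without wild type replicate 1. In AT5G10760 and BCS1 the spread lay in the line: AT5G10760 was at 4.55, 5.15 and 4.97 on the wild type arrays and 6.43, 8.42 and 6.37 on those of the line, and BCS1 at 5.41, 4.96 and 5.02 on the wild type arrays and 6.08, 7.99 and 6.04 on those of the line. Line replicate 2 was the high one in both, and without it the changes of 2.18 and 1.57 were 1.51 and 0.92. Calls were lost by BT5 without line replicate 1, 2 or 3 or wild type replicate 2 (adjusted p up to 0.0797), AT1G72920 without line replicate 1, 2 or 3 (adjusted p up to 0.0595), CAF1a without line replicate 1, 2 or 3 or wild type replicate 2 (adjusted p up to 0.119) and BCS1 without wild type replicate 1, 2 or 3 (adjusted p up to 0.126).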

How the data were processed

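RNA was hybridised to ATH1 arrays, and the authors deposited 1 log2 value per locus and array, made with RMA per the submitters' processing notes. RMA corrects the background, brings the arrays to 1 distribution and summarises probes; the sources used here do not give its version, how probes were assigned to loci or which arrays were processed together. The table holds no detection calls. All 9 arrays entered a linear model with a mean for each genotype (limma 3.58.1, R 4.3.3; 6 residual and 3.94 prior degrees of freedom from eBayes), and the contrast was adjusted by Benjamini-Hochberg over 20777 loci. The p-values reflect spread among biological repeats. A gene table of the assembly TAIR10.1 gave symbols and gene order for 20508 loci. The 34 gene lists held 703 entries, 625 of them measured; families were found by symbol, and rules that caught other genes or none were not used. The comparison and the lists were chosen with earlier results of these data known. Named were AVP1, the 20 largest rises and falls, up to 8 called and 3 uncalled members per list or family, the runs, and the 5 called loci with the largest spread; list members of the vacuole, pump and auxin transport groups could all be named, though the values of some members are not reported here. In simulated data with 100 loci changed by 0.5 and 100 by 1 on the log2 scale, the fit called 50% and 94% of them. It also called 5 unchanged loci. Far fewer loci changed there than were called here, so these shares need not hold for the real data. A locus that was not called may still have changed. Alternatives were 6 arrays alone, quantile normalization, median centring, dim loci left out, trend with robust eBayes, a replicate block, and each of the 6 arrays left out.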

Additional observations from a re-analysis of the deposited data

How the results depend on the processing

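The count of called loci, 2300, was 1824 with the 6 arrays alone, 2167 after quantile normalization, 2135 after median centring, 2263 without the dimmest 20% of loci, 2290 with a trended and robust eBayes and 2602 with the replicate number as a block. Without 1 array it ran from 1568 to 2105, with 867 to 1133 higher and 701 to 972 lower; the count of higher loci fell by more than 1.5 times, to 867, without wild type replicate 2. AVP1 was not called under any of these settings, with changes from -0.13 to -0.05. Of 258 named called loci 181 kept their call in all 6 fits without 1 array and 77 lost it in at least 1. With the 6 arrays alone 38 named calls were lost, and with the replicate block 7, with no reversal in sign under any setting run. The labels do not say that a replicate number marks a shared batch: deviations of same-numbered arrays correlated at 0.27, 0.07 and 0.28, and each array of the line correlated best with its own number, a hint from the data only. Low levels limit folds, as does the lack of detection calls.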
